A study of Mus musculus with 8 samples.

Results

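RNA-Seq of the EpCAM+ and EpCAM- fractions of *Zeb1*-/- LSK cells was used to describe 9 epithelial genes, *Epcam*, *Cdh1*, *Cldn7*, *Ocln*, *Krt8*, *Krt18*, *Spint2*, *Esrp1* and *Esrp2*, which were chosen by name out of the 54532 genes in the count table. LSK cells are the Lin- C-KIT+ SCA-1+ cells of bone marrow, a compartment that holds blood stem cells and early progenitors. All 8 libraries came from C57BL/6 background *Zeb1* fl/fl;*Mx1-Cre*+/- mice, 8 to 12 weeks old, in which 6 doses of 0.3 mg pIpC had been given to delete *Zeb1*, and marrow was taken 14 days after the last dose. Mx1-Cre is switched on by the interferon response to pIpC and is active outside blood cells too. The cells were sorted by surface EpCAM into 4 EpCAM+ and 4 EpCAM- libraries, and both fractions carried the same genotype and treatment, so no library here shows the genes in undeleted LSK cells.

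EpCAM is a surface glycoprotein through which epithelial cells adhere to each other. Epithelial sheets are held together by adherens junctions built on E-cadherin and by tight junctions built on claudins and occludin, their cytoplasm is strengthened by paired keratins, and the splicing factors ESRP1 and ESRP2 give many transcripts their epithelial form. ZEB1 is a zinc finger repressor that binds E-boxes of the type CAGGTG and is known for switching off epithelial genes in the epithelial-mesenchymal transition. Blood cells have no epithelial sheets, although some of them make individual genes of this group.

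Of the 9 genes, 7 had enough reads to be tested, and all 7 were higher in the EpCAM+ fraction, where no EpCAM+ library overlapped an EpCAM- library. *Epcam* is the gene of the sorting marker, so its place among the 7 was set by the sort. *Epcam* differed 47.3-fold, *Cldn7* 46.8-fold, *Ocln* 7.30-fold, *Krt8* 3.95-fold, *Cdh1* 2.53-fold, *Krt18* 2.20-fold and *Spint2* 1.37-fold. The splicing factor genes *Esrp1* and *Esrp2* had hardly any reads in either fraction. Higher and lower calls were common in this comparison: edgeR's quasi-likelihood test, adjusted by Benjamini and Hochberg, called 5779 of 13560 tested genes (42.6%), with 21.8% of tested genes higher and 20.8% lower in EpCAM+ cells. The separation of all 4 EpCAM+ values above all 4 EpCAM- values was met by 20.1% of tested genes. Of tested genes, 9.15% were called and more than 2-fold higher, as 6 of the 7 members were, counting *Epcam*. The members were chosen with earlier results of these data known, so their contrast with all tested genes is a description and no test. *Cldn7* and *Ocln* passed the filter on low counts through the EpCAM+ libraries, so that for them a higher level there goes with being tested. None of the 7 was lower, also at an unadjusted p under 0.05 and by DESeq2 or limma.

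Between 14114491 and 17073546 reads were counted on genes per library. Whole-gene *Zeb1* counts were 363, 261, 373 and 290 in the EpCAM+ libraries and 214, 189, 157 and 129 in the EpCAM- libraries, replicates 1 to 4. These counts do not resolve the deleted part of the gene, so they do not measure the deletion. *Zeb1* reads were more abundant in the EpCAM+ fraction (log2 fold change 0.72 ± 0.17 SE, edgeR adjusted p = 0.00798), a call that was lost without EpCAM+ replicates 1 and 4 (log2 fold change 0.58, adjusted p = 0.0694). Stem and progenitor markers were present in both fractions, with a summed level of 2357 to 2680 CPM (the read count scaled to a common library size) in EpCAM+ and 1252 to 1855 CPM in EpCAM- libraries, and 9 of 10 were called higher in EpCAM+ cells. Markers of several other cells also moved with the fractions, in a comparison where 21.8% of all tested genes were called higher and 20.8% lower. The 6 erythroid markers summed to 45.4 to 219 CPM in EpCAM+ against 1899 to 6620 CPM in EpCAM- libraries, and the 6 neutrophil markers to 764 to 1322 against 9904 to 15729 CPM, with 5 and 2 of them called lower in EpCAM+ cells. The median log2 fold change of the neutrophil markers was only -0.23 and 4 were not called, so their sum does not stand for each marker. The 8 dendritic cell markers summed to 399 to 4719 CPM in EpCAM+ against 103 to 160 CPM in EpCAM- libraries, and the 8 plasma cell markers to 389 to 3978 against 171 to 259 CPM, with 5 of 6 and 3 of 5 tested markers called higher. Mast cell and basophil markers summed to 68.3 to 91.2 CPM in EpCAM+ against 231 to 479 CPM in EpCAM- libraries (3 of 5 lower), and monocyte markers to 83.7 to 416 against 215 to 839 CPM (2 of 5 lower). B cell markers summed to 71.5 to 120.1 against 46.1 to 78.7 CPM (2 of 3 tested higher), and stromal and endothelial markers to 7.91 to 17.3 against 2.44 to 5.74 CPM (1 of 1 tested higher). Megakaryocyte markers overlapped between the fractions, at 123 to 357 against 80.7 to 273 CPM (1 of 4 tested higher). T cell markers were low, at 2.29 to 4.19 against 0.809 to 1.93 CPM (1 of 1 tested higher). The part of these markers in the differences below was not tested, and in bulk RNA a change in the number of cells of a type and a change in RNA per cell cannot be told apart.

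The 8 genes chosen as markers of skin, gut, gland or lung epithelium stayed low, with sums of 4.47 to 8.90 CPM in EpCAM+ and 3.00 to 4.74 CPM in EpCAM- libraries. *Krt5*, *Krt14*, *Krt19*, *Trp63* and *Sftpc*, the last of which marks alveolar cells of the lung, had 0 counts in all 8 libraries.

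Promoter sequences are shown because the factor deleted in these cells binds E-boxes. RefSeq sequences (GRCm38.p6) of the 250 bases before the transcription start were at hand for 6 members, with 8 starts. The windows of *Epcam* and *Spint2*, which contain no exon base, are shown whole in the direction of transcription, with CAGGTG or its reverse complement CACCTG in capitals. They stand for the ends of the range, since *Epcam* had the largest and *Spint2* the smallest difference between the fractions.
Epcam, chr17:87635729-87635978, plus strand: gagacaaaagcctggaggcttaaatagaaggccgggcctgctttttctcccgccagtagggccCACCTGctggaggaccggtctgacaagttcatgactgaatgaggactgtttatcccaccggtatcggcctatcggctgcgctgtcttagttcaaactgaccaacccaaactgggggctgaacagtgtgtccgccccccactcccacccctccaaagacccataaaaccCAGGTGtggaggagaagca
Spint2, chr7:29281978-29282227, minus strand: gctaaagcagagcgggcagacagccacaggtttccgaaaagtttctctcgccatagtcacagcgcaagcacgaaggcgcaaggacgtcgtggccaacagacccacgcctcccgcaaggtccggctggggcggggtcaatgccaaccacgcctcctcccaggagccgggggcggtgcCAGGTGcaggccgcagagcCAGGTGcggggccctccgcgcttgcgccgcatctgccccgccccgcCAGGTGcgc

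The *Epcam* window held 2 such sites, starting 187 and 19 bases before the start, and the *Spint2* window held 3, at 74, 55 and 9 bases. Over both strands, 17.2% of 32851 promoter windows of this length held at least 1 CAGGTG, 2.06% at least 2 and 0.247% at least 3. Each of the other 4 members with an entry, *Cldn7*, *Ocln*, *Krt8* and *Krt18*, also held the letters at 1 start or more. A match was thus found in 6 of 8 windows and, at any start, in 6 of 6 genes. The shares above are per window, and no such share per gene was computed. The nearest match to the start is shown for 3 of these genes with 10 bases on either side.
Cldn7, chr11:69965354-69965379, plus strand: acttccggttCAGGTGagtgtccctt
Ocln, chr13:100552551-100552576, minus strand: aggggctcggCAGGTGggtcccagcg
Krt18, chr15:102027992-102028017, plus strand: gggctaacacCACCTGctatcctttg

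These windows around the 4 genes partly overlap exons of the same genes from other starts. *Krt8* and *Krt18* also held 1 copy each of CAGGTA (reverse complement TACCTG), which 10.05% of all windows held. The other start of *Cldn7* and of *Ocln* held neither word. These are the starts at the outer end of each gene as placed below, with windows at chr11:69964529-69964778 and chr13:100552719-100552968. The matches of *Cldn7* and *Ocln* lie inside those gene coordinates. A match describes letters in the reference genome, and binding was not measured here. *Cdh1*, *Esrp1* and *Esrp2* had no entry in the promoter table.

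*Epcam* (ENSMUSG00000045394, GRCm38 chr17:87635979-87651106, plus strand) encodes the protein on which the cells were sorted, so its difference checks the sort and is not a finding. The EpCAM+ libraries had 3580, 2831, 3053 and 2818 *Epcam* counts, which correspond to 234, 160.5, 171 and 183 CPM in replicates 1 to 4. The EpCAM- libraries had 144, 51, 21 and 17 counts, or 8.99, 3.77, 1.43 and 1.25 CPM. The sort therefore showed in the RNA of every library, and the lowest EpCAM+ library lay 17.9-fold above the highest EpCAM- library. The log2 fold change was 5.56 ± 0.47 SE (edgeR adjusted p = 0.000121), and 0.347% of tested genes had a larger one. The EpCAM- libraries were not devoid of *Epcam* reads and ranged from 0.669% to 4.81% of the EpCAM+ mean, with replicate 1 the highest and replicate 4 the lowest.

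**Figure D1:**
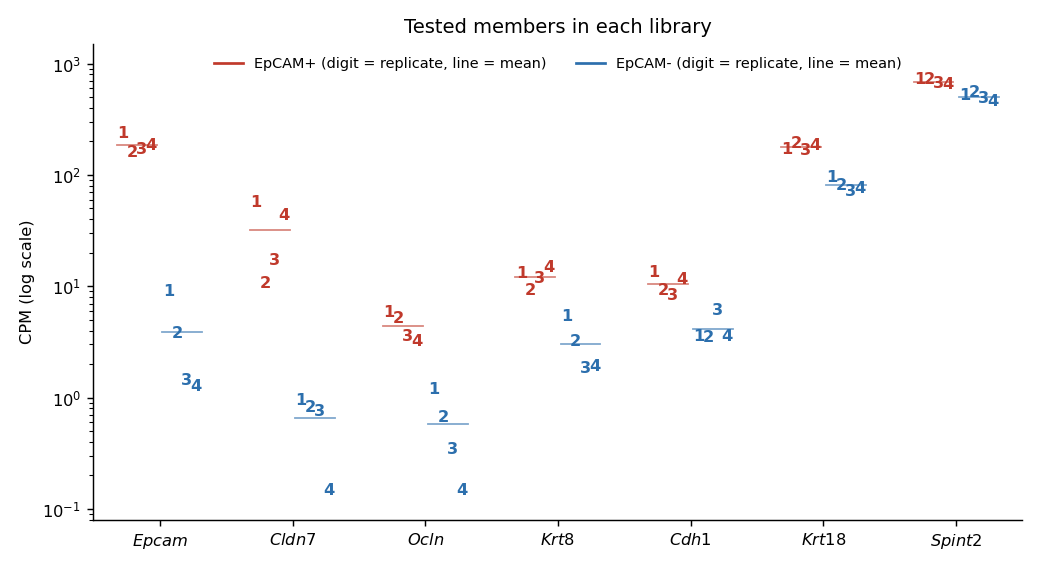
CPM on a log scale for the 7 tested genes in the 4 EpCAM+ (red) and 4 EpCAM- (blue) libraries, where each digit is a library's replicate number and each line a fraction's mean. The fractions do not overlap for any of the 7 genes, *Cldn7* spreads from 10.5 to 57.1 CPM among EpCAM+ libraries, and *Spint2* has the narrowest gap.

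*Cldn7* (ENSMUSG00000018569, chr11:69964779-69967885, plus strand) encodes claudin 7, a tight junction protein that binds EpCAM directly in epithelia. It had 873, 186, 302 and 662 counts in the EpCAM+ libraries, or 57.1, 10.5, 16.9 and 42.9 CPM in replicates 1 to 4. The EpCAM- libraries had 15, 11, 11 and 2 counts, or 0.936, 0.814, 0.751 and 0.147 CPM. All EpCAM+ libraries were above all EpCAM- libraries with an 11.3-fold gap, but replicates 1 and 4 were far above replicates 2 and 3 within the EpCAM+ fraction. On the log2 scale the difference was 5.55 ± 0.65 SE (edgeR adjusted p = 0.000257). In EpCAM- libraries *Cldn7* stood at 0.462% to 2.94% of its EpCAM+ mean, a range that overlapped the one of *Epcam*.

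*Ocln* (chr13:100496507-100552718, minus strand) encodes occludin, a membrane protein of tight junction strands. Its counts were low, with 88, 91, 63 and 49 in the EpCAM+ libraries and 19, 9, 5 and 2 in the EpCAM- libraries. On the CPM scale these were 5.75, 5.16, 3.52 and 3.18 against 1.19, 0.666, 0.341 and 0.147 CPM. The fractions were separated by a 2.68-fold gap, with replicates 1 and 2 above replicates 3 and 4 in both. The fitted log2 fold change was 2.87 ± 0.46 SE (edgeR adjusted p = 0.00111). EpCAM- libraries held 3.34% to 26.9% of the EpCAM+ mean.

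*Cdh1* (chr8:106603351-106670246, plus strand) encodes E-cadherin, the calcium-dependent adhesion molecule of adherens junctions and a textbook target of repression by ZEB1. The EpCAM+ libraries had 202, 163, 147 and 176 counts and the EpCAM- libraries 57, 47, 88 and 48 counts. The CPM values were 13.2, 9.24, 8.22 and 11.4 against 3.56, 3.48, 6.01 and 3.53. EpCAM- replicate 3 lay well above the other 3 libraries of its fraction and came closest to the EpCAM+ libraries, from which it was still separated by 1.37-fold. The log2 fold change of *Cdh1* was 1.34 ± 0.23 SE (edgeR adjusted p = 0.00151), and it was 1.57 without that library. The EpCAM- libraries contained 33.1% to 57.1% of the EpCAM+ level, so that *Cdh1* reads were found in both fractions to a much more similar extent than *Epcam* reads.

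*Krt8* and *Krt18* encode the type II and type I keratins that assemble with each other into the filaments of simple epithelia, and they lie next to each other on chr15 (101996698-102004482, minus strand, and 102028180-102032027, plus strand). *Krt8* had 201, 160, 211 and 229 counts in the EpCAM+ libraries and 85, 43, 27 and 26 counts in the EpCAM- libraries. These were 13.1, 9.07, 11.8 and 14.8 CPM against 5.31, 3.18, 1.84 and 1.91 CPM. All EpCAM+ values lay above the EpCAM- values, of which replicate 1 was the highest. The log2 fold change of *Krt8* was 1.98 ± 0.32 SE (edgeR adjusted p = 0.0011). Its processed copy *Krt8-ps* had at most 3 counts in any library.

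*Krt18* had 2602, 3353, 2966 and 2823 counts in the EpCAM+ libraries and 1530, 1085, 1033 and 1035 counts in the EpCAM- libraries. These were 170.1, 190.1, 166 and 183 CPM against 95.5, 80.3, 70.5 and 76.1 CPM, so that the values within a fraction were close to each other and the fractions did not overlap. The fractions differed by a log2 fold change of 1.14 ± 0.10 SE (edgeR adjusted p = 0.000123). EpCAM- libraries retained 39.8% to 53.9% of the EpCAM+ mean of *Krt18* and 15.1% to 43.4% of that of *Krt8*. The difference in *Krt18* was thus smaller than that in *Epcam* by more than 4 on the log2 scale, yet its adjusted p was close to that of *Epcam*, since its replicates varied little (coefficient of variation 6.37% in EpCAM+ and 13.3% in EpCAM- libraries).

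*Spint2* (chr7:29256323-29281912, minus strand) encodes a membrane-bound Kunitz-type inhibitor of serine proteases such as matriptase. It had the most counts of the 9 genes in both fractions, with 10923, 12684, 11975 and 9976 in EpCAM+ and 8219, 7420, 7099 and 6251 in EpCAM- libraries. The values of 714, 719, 669 and 647 CPM in EpCAM+ cells were all above the 513, 549, 485 and 459.8 CPM in EpCAM- cells, with a 1.18-fold gap between the closest libraries. This was a log2 fold change of 0.45 ± 0.08 SE (edgeR adjusted p = 0.00163). EpCAM- libraries had 66.9% to 79.9% of the EpCAM+ level, and 23.4% of tested genes had a larger log2 fold change than *Spint2*.

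*Esrp1* (chr4:11331933-11386783, minus strand) had 1 count in EpCAM+ replicate 2 and 0 counts in the other 7 libraries. A count of 0 allows up to 3 counts, or 0.168 to 0.222 CPM in these libraries, for counting error only. *Esrp2* (chr8:106130319-106136974, minus strand) had 0, 1, 3 and 13 counts in EpCAM+ and 2, 0, 3 and 2 counts in EpCAM- libraries. The fractions overlapped for both genes, and apart from the 13 counts in EpCAM+ replicate 4 no library had more than 3. A difference was not detectable at this depth (exact two-sided permutation test of CPM, n = 4 per fraction, p = 1 for *Esrp1* and p = 0.743 for *Esrp2*, where 4 against 4 libraries allow no p below 0.0286). *Esrp2* shares its locus with *Nfatc3* on the opposite strand, which had up to 769 counts, and the strand setting of the counting was not given in the sources used here. Transcripts of the junction and keratin members were thus counted in all EpCAM+ libraries, while *Esrp2* in replicate 4 was the only ESRP value above the floor of 3 counts.

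**Figure D2:**
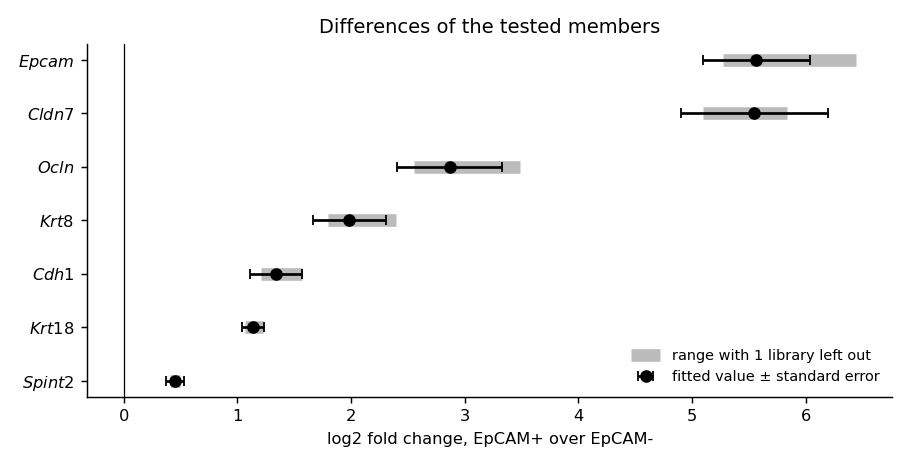
Log2 fold change of EpCAM+ over EpCAM- for the 7 tested genes. Points and bars are fitted values and standard errors, and grey bands span the values with 1 library left out. The values run from 5.56 for *Epcam* to 0.45 for *Spint2*, and each band stays above 0.

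Differences within same-numbered pairs of libraries were above 0 for all 7 genes in all 4 pairs. For *Epcam* they ran from 4.68 to 7.05 on the log2 scale and for *Cldn7* from 3.50 to 7.28. The narrowest ranges were those of *Spint2*, from 0.39 to 0.49, and *Krt18*, from 0.83 to 1.26. *Cdh1* ranged from 0.44 in pair 3 to 1.86 in pair 1, where the low value belonged to the EpCAM- library that stood apart.

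The share of the EpCAM+ level that remained in EpCAM- cells divided the members. *Epcam* and *Cldn7* stayed under 5% in each EpCAM- library, and *Ocln* and *Krt8* covered a wide range. *Cdh1*, *Krt18* and *Spint2* exceeded 33% in every EpCAM- library, which is above the highest share of *Epcam*, 4.81%. EpCAM- replicate 1 had the highest level of *Epcam*, *Cldn7*, *Ocln*, *Krt8* and *Krt18*, that is of 5 of the 7 tested members, while 27.8% of all tested genes were highest in that library among the EpCAM- libraries. Without it the log2 fold change of *Epcam* was 6.44.

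**Figure D3:**
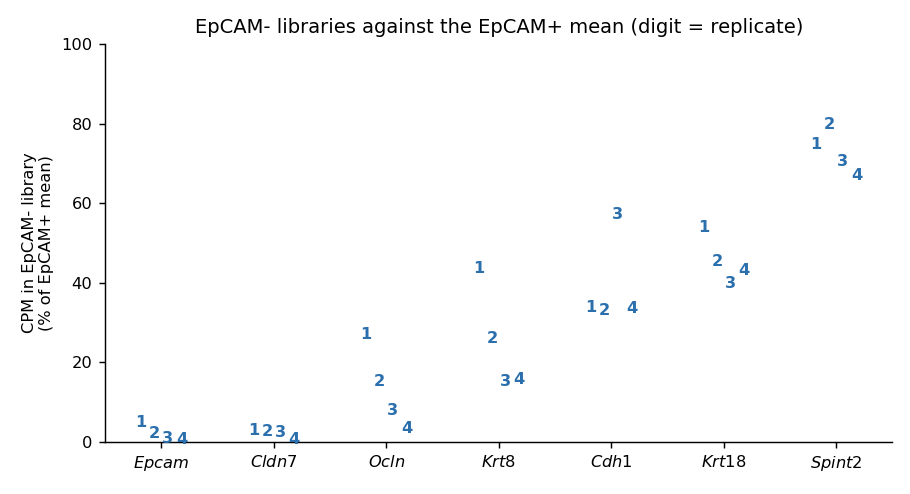
Level in each EpCAM- library as a percentage of the mean of the 4 EpCAM+ libraries, with digits for replicate numbers. *Epcam* and *Cldn7* lie below 5%, *Cdh1* and *Krt18* between 33.1% and 57.1%, and *Spint2* between 66.9% and 79.9%.

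To compare the members with each other, CPM were divided by the gene length in kb. Per length, EpCAM+ cells had 151 ± 7.70 of *Spint2* (SD, n = 4), 123 ± 7.86 of *Krt18*, 91.7 ± 16.01 of *Epcam*, 16.4 ± 11.2 of *Cldn7*, 6.24 ± 1.25 of *Krt8*, 2.30 ± 0.488 of *Cdh1* and 1.04 ± 0.296 of *Ocln*, all in CPM per kb. In that order only *Cldn7* and *Krt8* overlapped, since *Cldn7* reached down to 5.41 in EpCAM+ replicate 2 while *Krt8* reached up to 7.58. *Krt18* (lowest 115.4) and *Epcam* (highest 114.7) were only just apart. The partner keratins thus differed widely in transcript level in the same libraries.

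In EpCAM- cells the order changed below the top. *Spint2* (110.1 ± 8.43 CPM per kb) and *Krt18* (56.1 ± 7.45) remained the most abundant per length. *Epcam* fell to 1.89 ± 1.77 and overlapped *Krt8* at 1.56 ± 0.826, which in turn overlapped *Cdh1* at 0.906 ± 0.272. *Cldn7* (0.340 ± 0.181) lay below *Cdh1* in every library and overlapped *Ocln* (0.139 ± 0.108), the least abundant member with a testable level. The length column and the deposited FPKM imply different lengths for some genes. With the FPKM columns the level of *Cldn7* in EpCAM+ cells was 39.1, that of *Spint2* 395, that of *Cdh1* 3.83 and that of *Ocln* 1.94, while the order in EpCAM+ cells was the same.

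The members also differed in how evenly they were expressed among the 4 EpCAM+ libraries. The highest EpCAM+ library exceeded the lowest by 1.11-fold for *Spint2*, 1.15-fold for *Krt18*, 1.46-fold for *Epcam*, 1.61-fold for *Cdh1*, 1.64-fold for *Krt8* and 1.81-fold for *Ocln*, but by 5.41-fold for *Cldn7*. The EpCAM+ libraries with most *Cldn7*, replicates 1 and 4, were also those with most dendritic cell markers, whose sum was 4665 and 4719 CPM there against 399 and 1172 CPM in replicates 2 and 3. *Xcr1*, a chemokine receptor of cross-presenting dendritic cells, had 147, 11.4, 35.8 and 131 CPM in EpCAM+ replicates 1 to 4 and at most 0.811 CPM in EpCAM- libraries. *Epcam*, *Krt8* and *Cdh1* were also highest in replicates 1 and 4, by smaller amounts, and *Epcam* and *Krt8* were lowest in replicate 2. Plasma cell markers were high in EpCAM+ replicate 1, with 3978 CPM against 389 to 674 CPM in the other 3 libraries.

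With EpCAM+ replicates 1 and 4 both left out, a setting chosen after the data were seen, all 7 members were still called higher. The log2 fold change of *Cldn7* was then 4.33 (edgeR adjusted p = 0.000563) and that of *Epcam* 5.38, while *Krt18* and *Spint2* were at 1.14 and 0.46. The count of all called genes fell to 3675 in that setting. The setting did not remove the difference in dendritic cell markers. Their sum was 399 and 1172 CPM in the kept EpCAM+ replicates 2 and 3, against 103 to 160 CPM in EpCAM- libraries. The part of dendritic cells in the members' differences was thus not tested by it.

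**Figure D4:**
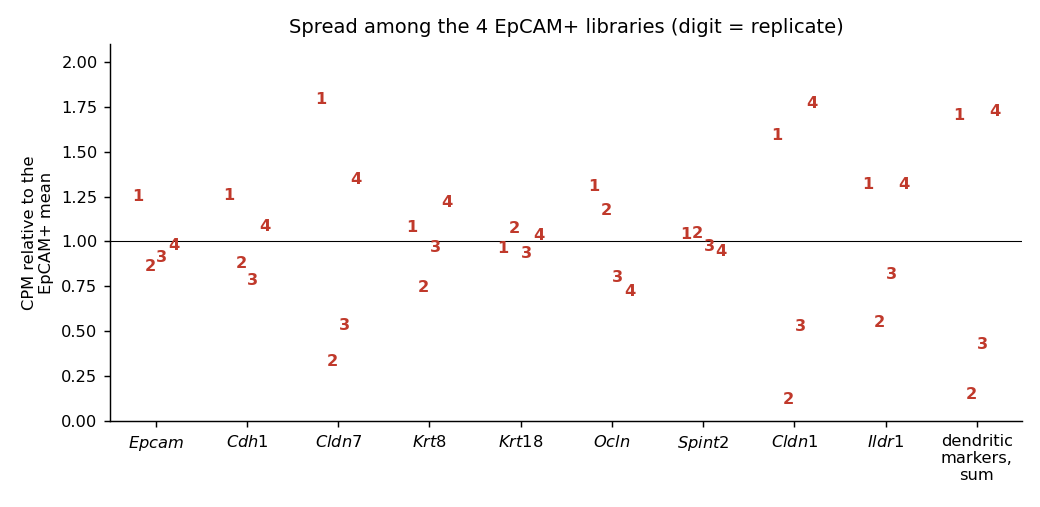
Level in each EpCAM+ library relative to the mean of the 4 EpCAM+ libraries, for the 7 tested members, the tight junction genes *Cldn1* and *Ildr1*, and the summed dendritic cell markers. *Cldn7*, *Cldn1*, *Ildr1* and the dendritic sum are highest in replicates 1 and 4 and lowest in replicate 2, as are *Epcam* and *Krt8* over a narrower range, whereas *Spint2* and *Krt18* differ by at most 1.15-fold.

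The tested protein-coding genes whose pattern over the 8 libraries was most like that of *Epcam* were searched by the root mean square difference of centred log2 CPM. *Ildr1*, which encodes a protein of tricellular tight junctions, was nearest at 0.61, followed by *Cldn7* at 0.90, *Cadm1* at 1.06, *Rasgrp3* at 1.13 and *Slamf7* at 1.13. *Ildr1* had 23.9, 9.92, 14.8 and 23.9 CPM in EpCAM+ and 1.69, 0.296, 0.273 and 0.0735 CPM in EpCAM- libraries. As with *Cldn7*, its EpCAM+ replicates 1 and 4 were the highest. So were those of *Cadm1* (44.8, 4.76, 13.9 and 47.9 CPM in EpCAM+ replicates 1 to 4), *Rasgrp3* (23.2, 2.95, 5.59 and 16.8) and *Slamf7* (124, 9.02, 32.1 and 92.0). The summed dendritic cell markers were likewise highest in replicates 1 and 4 and lowest in replicate 2. The part of dendritic cells in this likeness was not tested. The other members were further from *Epcam*, with *Ocln* at 1.59 (rank 83 of tested genes), *Krt8* at 1.99, *Cdh1* at 2.49, *Krt18* at 2.51 and *Spint2* at 2.86 (rank 3042). This likeness is a description over 8 libraries that mostly reflects the difference between the fractions. *Ildr1*, *Cadm1*, *Rasgrp3* and *Slamf7* passed the filter on low counts through the EpCAM+ libraries, as *Cldn7* did.

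Other genes of the epithelial programme were read from the same fit, in lists. Their counts are given beside the median log2 fold change of 0.02 over all tested genes. Of all tested genes, 21.8% were called higher and 20.8% lower in EpCAM+ cells. Some listed genes passed the filter on low counts only through the fraction where they were higher, so for them the difference goes with being tested. These include *Cldn1*, *Ildr1*, *Prkcz* and *Rbfox2* through EpCAM+ and *Cldn15* through EpCAM- libraries. Of 32 claudin and tight junction genes 12 were tested, 9 of which were higher and 1 lower in EpCAM+ cells (median 1.29). *Marveld2*, which encodes tricellulin, differed by 1.64 ± 0.15 SE (edgeR adjusted p = 0.00014), and *Lsr*, a receptor that recruits tricellulin, by 2.11 ± 0.22 (adjusted p = 0.000182). *Cldn15*, a claudin that forms ion pores, went the other way, with 0.454 to 0.737 CPM in EpCAM+ and 10.7 to 30.2 CPM in EpCAM- libraries (log2 fold change -4.85 ± 0.40, adjusted p = 0.000118). *Cldn1*, named after its values were seen, rose the most on this list (5.97 ± 0.93, adjusted p = 0.000951), with 34.98, 2.66, 11.6 and 38.9 CPM in the EpCAM+ libraries. The claudin genes were thus split, and 6 others of the list had 0 counts in all libraries.

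Of 24 adherens junction and desmosome genes 14 were tested and 8 were higher in EpCAM+ cells (median 0.62). None was lower by edgeR, DESeq2 or limma, or at an unadjusted p under 0.05. *Afdn*, which links nectins to actin, had 22.4 to 29.8 CPM against 6.47 to 8.68 CPM (log2 fold change 1.75 ± 0.14, edgeR adjusted p = 9.81e-05). The desmosomal cadherin gene *Dsg2* differed by 1.95 ± 0.27 (adjusted p = 0.000576) and *Nectin4* by 1.49 ± 0.30 (adjusted p = 0.00322). *Ctnnb1*, encoding the β-catenin that binds the tail of E-cadherin, was named after its values were seen and had a log2 fold change of 0.06 ± 0.07 (adjusted p = 0.522).

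Among 16 other keratin genes 10 had 0 counts in every library and 3 were tested. *Krt7* (1.74 ± 0.39, edgeR adjusted p = 0.00563) and *Krt80* (0.90 ± 0.25, adjusted p = 0.0151) were higher in EpCAM+ cells, and *Krt10* had 2.75 to 4.93 against 2.93 to 3.97 CPM (adjusted p = 0.651). *Krt7* had at most 48 counts in a library. Without EpCAM+ replicates 1 and 4 neither call held, at log2 fold changes of 1.54 for *Krt7* (adjusted p = 0.054) and 0.77 for *Krt80* (adjusted p = 0.0995). Per length, EpCAM+ cells had 1.59 ± 0.186 CPM per kb of *Krt80* and 0.372 ± 0.0606 CPM per kb of *Krt7* (SD, n = 4), below the levels of *Krt18* and *Krt8*.

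Splicing regulators of the epithelial or mesenchymal state, apart from the ESRP genes, were all tested. Of these 14 genes, 3 were higher and 5 lower in EpCAM+ cells (median -0.17), beside 21.8% higher and 20.8% lower of all tested genes. The lower ones differed by small amounts. *Srsf1*, a general splicing activator, had 262 to 289 CPM against 336 to 397 CPM (log2 fold change -0.38 ± 0.07, edgeR adjusted p = 0.00249). *Rbfox2* (1.70 ± 0.34, adjusted p = 0.00336) and *Mbnl2* (0.35 ± 0.07, adjusted p = 0.00286) were higher. With upper quartile scaling or library totals the median of all genes moved to 0.11 and only 3 of the 14 were lower, as they were without EpCAM+ replicate 2 or 3 or EpCAM- replicate 3 or 4, while the split of all calls moved from 2961 higher and 2818 lower to 3642 and 2083 or 3476 and 2066.

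Of 7 genes whose transcripts ESRP proteins are known to splice, 5 were tested. Of these, 1 was called higher and 1 lower, beside 21.8% higher and 20.8% lower of all tested genes. *Arhgef11* was higher (0.82 ± 0.23, edgeR adjusted p = 0.0151) but lost its call without EpCAM+ replicates 1 and 4 (log2 fold change 0.83, adjusted p = 0.0624). *Nf2*, encoding merlin, was lower (-0.34 ± 0.11, adjusted p = 0.0271), a call that was also lost without those libraries (log2 fold change -0.38, adjusted p = 0.0725) with upper quartile scaling or library totals, and without any 1 of EpCAM+ replicates 1 to 3 and EpCAM- replicates 3 and 4 (adjusted p from 0.0561 to 0.0757). *Slk* had 112 to 153 CPM against 145 to 156 CPM (adjusted p = 0.117), and it was called lower without EpCAM+ replicate 4 (adjusted p = 0.0333), without replicates 1 and 4 (0.0309) and with the replicate block (0.0473). *Fgfr2* had 0 counts throughout. Gene counts do not show which exons were used, so the splicing of these transcripts was not measured.

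The polarity list, of the Crumbs, Par and Scribble complexes that set up apical and basal membranes, had 7 of 13 tested genes higher in EpCAM+ cells (median 0.40). None was lower by edgeR, DESeq2 or limma, or at an unadjusted p under 0.05. *Crb3*, encoding the Crumbs protein of epithelia, had 22.8, 15.3, 15.5 and 15.1 CPM in EpCAM+ and 3.62, 0.814, 1.64 and 0.883 CPM in EpCAM- libraries (log2 fold change 3.27 ± 0.39, edgeR adjusted p = 0.000301). *Patj*, a scaffold of the same complex, differed by 1.82 ± 0.19 (adjusted p = 0.000182), and the atypical protein kinase C gene *Prkcz* by 2.43 ± 0.44 (adjusted p = 0.00198) at no more than 29 counts per library. The polarity count was 4 without EpCAM+ replicate 1, EpCAM+ replicate 3 or EpCAM- replicate 2.

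Genes around the protease inhibitor *Spint2* were also higher, with 5 of 8 tested genes up and 1 down (median 0.89). *St14*, which encodes matriptase, had 73.1, 59.6, 74.7 and 74.2 CPM in EpCAM+ and 24.0, 21.8, 19.5 and 16.8 CPM in EpCAM- libraries (log2 fold change 1.78 ± 0.12, edgeR adjusted p = 4.21e-05). The related inhibitor gene *Spint1* differed by 2.27 ± 0.25 (adjusted p = 0.000211), more than *Spint2*, and *Hgfac*, a protease that activates hepatocyte growth factor, by 2.96 ± 0.26 (adjusted p = 0.000125). The lower gene, *Hpn*, encodes the protease hepsin, and it was named after its values were seen (-2.79 ± 0.32, adjusted p = 0.000248).

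Of 14 other epithelial genes 6 were tested and 4 were higher (median 1.74). At an unadjusted edgeR p under 0.05, 5 were higher and 1 was lower. The list summed to 283 to 383 CPM in EpCAM+ and 334 to 418 CPM in EpCAM- libraries, so its summed level was not higher in EpCAM+ cells. *Ap1m2*, *Itgb4* and *Itgb6* had no more than 13.6 CPM in any library, so the sum does not stand for each gene. The higher genes included *Ap1m2*, a subunit of the epithelial sorting adaptor (2.62 ± 0.39, edgeR adjusted p = 0.00075), and the integrin genes *Itgb4* (1.95 ± 0.28, adjusted p = 0.000633) and *Itgb6* (1.54 ± 0.41, adjusted p = 0.0133). *Itgb6* lost its call without EpCAM+ replicates 1 and 4 (1.39, adjusted p = 0.0864).

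Of 12 mesenchymal genes 3 were tested, and edgeR called 0 of them and found 0 at an unadjusted p under 0.05, while limma called 0 and DESeq2, which tested more genes, called 1. That gene, *S100a4*, had at most 5 counts in a library, did not pass the edgeR filter and was named after its values were seen (DESeq2 log2 fold change 3.58, adjusted p = 0.0363). *Vim*, encoding the intermediate filament vimentin, had 245 to 340 CPM in EpCAM+ and 219 to 292 CPM in EpCAM- libraries (log2 fold change 0.15 ± 0.12, edgeR adjusted p = 0.321). *Sparc*, a matrix protein gene, had 0.458 to 3.12 against 0.341 to 1.47 CPM (1.23 ± 0.62, adjusted p = 0.134, and 0.0369 with the replicate block), and *Itga5* had a log2 fold change of -0.14 ± 0.12 (adjusted p = 0.384). *Vim* levels thus overlapped between the fractions, whereas those of *Krt8* and *Krt18* did not.

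**Figure D5:**
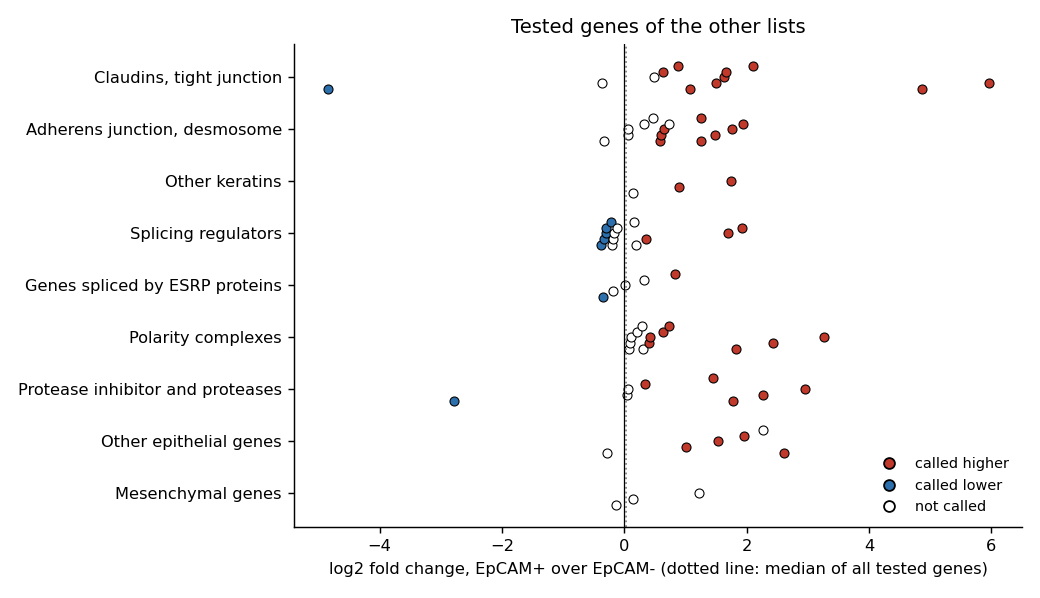
Log2 fold change of EpCAM+ over EpCAM- for each tested gene of the 9 other lists described, filled red where called higher, blue where called lower and white where not called at an adjusted p of 0.05. Tight junction, polarity, protease and other epithelial genes reach values above 2, *Cldn15* lies at -4.85 and *Hpn* at -2.79, and the lower splicing regulators lie close to 0.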

How the data were processed

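RNA was amplified with SMART-Seq v4 from sorted cells (4 mice per genotype, per the labels) and sequenced as 150-bp paired ends. The authors aligned reads to GRCm38.p6 with STAR 2.6.1d, counted them per gene with featureCounts 1.5.0-p3 and deposited raw counts and FPKM in a single table. Strandedness and the handling of multimapping reads are not given in the sources used here. The table also holds comparisons by the authors (DESeq2 1.20.0 fold changes with p-values for the fractions, and others for 4 same-numbered pairs), which were not used.

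Counts were tested in R 4.3.3 with edgeR 4.0.16 (filterByExpr, TMM, quasi-likelihood test, two-sided) over all 13560 genes that passed the filter and Benjamini-Hochberg adjusted p under 0.05 as the call. Standard errors came from the F statistic. CPM used the TMM library size, and log2 CPM a prior count of 2. *Esrp1* and *Esrp2* did not pass the filter and were compared by exact permutation. Named genes are the members, *Zeb1*, up to 3 tested genes per list with the smallest adjusted p, and the 5 protein-coding genes nearest to *Epcam*, and any others were named after their values were seen. A few items are not reported here. The members and lists were chosen with earlier results of these data known. What the replicate numbers share is not given in the sources used here, and p-values measure the spread between these samples.

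By their values, same-numbered EpCAM+ and EpCAM- libraries behaved as pairs: they departed from the fraction means in like ways (correlation across genes 0.205 to 0.356 in 4 pairs, against -0.216 to 0.0396 in 12 other pairs). The main test did not use this pairing, which entered only as an alternative. Libraries of a fraction differed beyond sampling noise (lowest chi-square 10.6 for each degree of freedom). Alternatives were DESeq2 1.42.0, limma 3.58.1 (limma-trend), DESeq2 size factors, upper quartile scaling, library totals, filters of 1 count in any and 10 counts in every library, the replicate block and leaving out each library. The procedure was tested on simulated data. Figures were drawn with matplotlib 3.10.9 in Python 3.11.15.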

Additional observations from a re-analysis of the deposited data

Results flagged for a closer look

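A sample that stood far from the other 3 of its fraction, by Dixon's criterion, was found in 7 of 87 groups examined, and chance flags about 1 in 20. Among members these were *Cdh1* in EpCAM- replicate 3, with 6.01 CPM against 3.48 to 3.56 CPM in the other EpCAM- libraries, and *Esrp1* in EpCAM+ replicate 2, with 0.0567 CPM from 1 count against 0. *Crb3* was high in EpCAM+ replicate 1 at 22.8 CPM, against 15.1 to 15.5 CPM in the others. *St14* was low in EpCAM+ replicate 2 at 59.6 CPM, against 73.1 to 74.7 CPM. EpCAM- replicate 1 was the high library for *Ap1m2* (2.37 CPM), *Ildr1* (1.69 CPM) and *Slamf7* (2.56 CPM), and it was also the EpCAM- library with most *Epcam*.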

How the results depend on the processing

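All 7 tested members stayed called higher under every alternative in which they were tested. *Cldn7* and *Ocln* were not tested with 10 counts required in every library, which left 5 members called. With 1 library left out, the log2 fold changes ran from 5.27 to 6.44 (*Epcam*), 5.10 to 5.84 (*Cldn7*), 2.56 to 3.49 (*Ocln*), 1.80 to 2.39 (*Krt8*), 1.21 to 1.57 (*Cdh1*), 1.07 to 1.22 (*Krt18*) and 0.41 to 0.49 (*Spint2*), and 4662 to 6039 genes were called in all.

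With the pairing taken as a replicate block, 7 members and 6818 genes were called, and no member's call changed. The block moved the genes spliced by ESRP proteins called lower from 1 to 2, the mesenchymal genes called higher from 0 to 1 and the other epithelial genes called lower from 0 to 1.

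The 10-count filter left 0 tight junction genes lower, 1 keratin higher and 3 protease-related genes higher, since fewer genes were tested. Splicing regulators called lower numbered 3 with upper quartile scaling and with library totals, and 3 to 7 with 1 library left out. For the genes spliced by ESRP proteins, the count of lower calls was 0 with those scalings and 0 to 2 with 1 library left out. Polarity genes called higher numbered 4 to 8 with 1 library left out. Other epithelial genes called higher were 7 with DESeq2, and 1 was called lower with DESeq2, limma-trend and DESeq2 size factors and 0 to 1 with 1 library left out. DESeq2 and the 1-count filter called 1 mesenchymal gene higher (*S100a4*), and the gene under the block was *Sparc*. Without EpCAM+ replicates 1 and 4, calls fell to 1819 genes higher and 1856 lower (3675 in all), with 0 keratins and 0 genes spliced by ESRP proteins higher and 2 other epithelial genes higher and 1 lower. Among the other named genes, 17 of 583 alternative values changed a call, all without a change in direction. The cause of these changes was not tested.

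The difference of mean CPM of *Esrp2* was 0.148 and ran from -0.0447, without EpCAM+ replicate 4, to 0.235 with 1 library left out. The deposited FPKM gave levels of 3.83 and 1.43 for *Cdh1*, 39.1 and 0.786 for *Cldn7*, 1.94 and 0.246 for *Ocln* and 395 and 272.5 for *Spint2* in EpCAM+ and EpCAM- cells. Depth limited *Esrp1*, *Esrp2* and, in EpCAM- libraries, *Ocln* and *Cldn7*.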
